A study of Mus musculus with 6 samples.

Results

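Signal of 34 genes of the primitive streak, the mesoderm and the cardiovascular lineages was examined in E14 mouse embryonic stem cells with a knockdown of Tdg and in control E14 cells, with 3 arrays in each group. The genes were taken from a written list by their symbol in the platform annotation, and each was read from the single-gene probe set (row) with the highest mean over the 6 arrays. Of the 34 genes 33 had such a row, out of 19938 named genes in all. T, the T-box factor Brachyury, was the 1 without such a row, so its signal was not analysed here. The list holds 16 genes of the streak and the caudal mesoderm (15 measured), 9 cardiac genes, 7 haemato-vascular genes and 2 other mesodermal genes. It was drawn up with earlier results of these arrays known.

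The product of Tdg, thymine DNA glycosylase, starts base excision repair by cutting mispaired thymine, and some of the oxidised cytosines made by TET enzymes, out of DNA. E14 is an established feeder-independent line. Both groups were cultured on gelatin-coated plastic in serum with LIF, the cytokine that holds mouse stem cells undifferentiated. In the labels' protocols ES cells received lentivirus at a multiplicity of infection of 10 and were selected with puromycin (2 ug/ml) from 48 h on. The knockdown construct and the control vector are not described in the labels, and nothing there says that the arrays of 1 group stem from separate cultures. The p-values thus cover the spread among these arrays, and that spread may be technical. The RNA extraction text names a Kdm2b knockdown, whereas titles and design name Tdg.

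The primitive streak is the site in the gastrulating embryo where epiblast cells become mesoderm and endoderm. Its formation depends on WNT3, NODAL and BMP4 signals, which induce T-box factors such as Brachyury and Eomes. MESP1 then marks the earliest cardiovascular progenitors, ETV2 directs the endothelial and blood branch, and NKX2-5, TBX5, TBX20, GATA4 and ISL1 act in the heart. In undifferentiated embryonic stem cells most of these genes are silent or weakly transcribed, and many are held by Polycomb at CpG-rich promoters.

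The sequences below are the 250 bases before the annotated start of the genes whose knockdown arrays all lay below the control arrays, printed 5′ to 3′ on the gene's strand with each CpG, the dinucleotide that carries cytosine methylation, in capitals. They are RefSeq sequences of build GRCm38.p6, for Tbx20 from chr9:24774304-24774553 on the minus strand, for Wnt3 from chr11:103773925-103774174 on the plus strand and for Cdx4 from chrX:103321148-103321397 on the plus strand.
Tbx20: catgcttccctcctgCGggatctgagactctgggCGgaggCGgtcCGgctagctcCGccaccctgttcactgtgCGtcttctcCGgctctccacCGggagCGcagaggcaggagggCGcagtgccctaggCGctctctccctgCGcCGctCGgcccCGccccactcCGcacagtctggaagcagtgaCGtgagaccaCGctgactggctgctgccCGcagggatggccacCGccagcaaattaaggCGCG
Wnt3: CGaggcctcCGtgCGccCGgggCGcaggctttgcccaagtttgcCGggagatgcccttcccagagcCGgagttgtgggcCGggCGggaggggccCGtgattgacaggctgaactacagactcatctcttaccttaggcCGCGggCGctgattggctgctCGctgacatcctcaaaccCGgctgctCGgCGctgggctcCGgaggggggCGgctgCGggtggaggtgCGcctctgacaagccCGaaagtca
Cdx4: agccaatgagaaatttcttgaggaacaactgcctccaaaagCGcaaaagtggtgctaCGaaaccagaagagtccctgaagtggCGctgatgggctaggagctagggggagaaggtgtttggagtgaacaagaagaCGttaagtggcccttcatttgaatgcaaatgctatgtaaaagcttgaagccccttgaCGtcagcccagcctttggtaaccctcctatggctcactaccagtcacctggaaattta

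The Tbx20 and Wnt3 windows hold 22 CpG each, a count reached by 14.8% of the 32851 such windows of all genes, and the Cdx4 window holds 5, against a median of 6 over all genes. RefSeq windows were at hand for 25 of the 34 genes (30 windows, since some genes have several starts), and their CpG counts ran from 0 at a start of Tnnt2 to 41 at Wnt3a, with a median of 8. Isl1 (33), Lhx1 (26) and Gata2 (24 and 22) were also CpG-rich, while Mesp1 and Gata1 had 2 each. The half-site of Brachyury, AGGTGTGA on either strand, was in 0 of the 30 windows and in 1.12% of all windows. The TCF/LEF core CTTTGAA, searched on both strands, was found in 3 windows, those of T, Mesp1 and Msgn1, and in 4.46% of all windows. These matches describe letters only. DNA methylation and factor binding were not measured on these arrays.

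Values are log2 signals as deposited, so that 1 unit is a doubling of measured signal. Differences are knockdown minus control, tested with limma across all named genes with Benjamini-Hochberg adjustment at a threshold of 0.05. Levels of different probe sets were not set against each other, and no detection call came with the values, so each change is one of measured signal. In bulk RNA, fewer cells that transcribe a gene and less RNA per cell cannot be told apart. Tdg signal, read from 4 rows shared with the pseudogene Tdg-ps2, was 8.24, 8.15 and 7.92 in knockdown arrays against 11.12, 11.20 and 11.10 in control arrays, a difference of -3.03 (SE 0.09, limma adjusted p 8.79e-05, exact permutation p 0.1, the smallest that 3 arrays against 3 allow). The 10 stem cell markers averaged 11.95 to 12.06 in knockdown arrays and 11.99 to 12.05 in control arrays, and none passed the test, with Pou5f1 at 12.58 and 12.54 and Nanog at 12.84 and 12.82. Among markers of other cell types 0 of 9 fibroblast, 0 of 10 primitive endoderm and 0 of 8 trophoblast genes passed, and 1 of 9 neuroectoderm genes did, Pax6 (0.93). The share over all named genes was 0.792% (0.241% higher and 0.552% lower). In the neuroectoderm list 6 of 9 genes had groups that did not overlap, against 19.0% of all named genes (7.98% higher and 11.0% lower). Of the 6, 3 were higher in knockdown arrays (Pax6, Map2 at 0.37 and Tubb3 at 0.36) and 3 lower (Nes at -0.60, Neurod1 at -0.48 and Otx2 at -0.31). With the replicate numbers as a block 3 of the 9 were higher (Pax6, Map2 and Tubb3) and 1 lower (Nes, adjusted p 0.0246). Over all named genes 3.08% passed with the block (1.07% higher and 2.01% lower). Groups also did not overlap for 3 of 8 trophoblast genes and 3 of 10 primitive endoderm genes, in each list 1 higher and 2 lower. For fibroblast that count was 1 of 9 (lower), and for stem cell markers 1 of 10 (higher). In these other marker lists the block added lower calls only. They were Hnf4a of primitive endoderm (-0.46, adjusted p 0.0673, with the block 0.0360) and Krt8 and Krt18 of trophoblast, whose values are given below. Knockdown replicate 3 stood apart from the other arrays, at 58.6 on a first principal component that held 60.5% of the variance and on which the others lay between -43.1 and 19.7.

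Of the 33 measured genes 1 fell in knockdown cells, the cardiac factor gene Tbx20, and 0 rose. That is 3.03% of the 33, where 0.792% of all named genes passed, 0.241% higher and 0.552% lower. At an unadjusted p under 0.05 the count was 1 higher (Hand1) and 3 lower (Tbx20, Wnt3 and Cdx4), or 12.1% of the 33, against 12.5% of all named genes (5.03% higher and 7.48% lower). The same 4 genes were those whose groups did not overlap, 12.1% of the 33 against 19.0% of all named genes (7.98% higher and 11.0% lower). By these looser counts the share among streak and cardiovascular genes was close to or below that of all named genes. Measured differences were mostly small: 27 of the 33 had a size under 0.2, and 27 had a 95% interval wholly within 0.5 of 0.

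**Figure D1:**
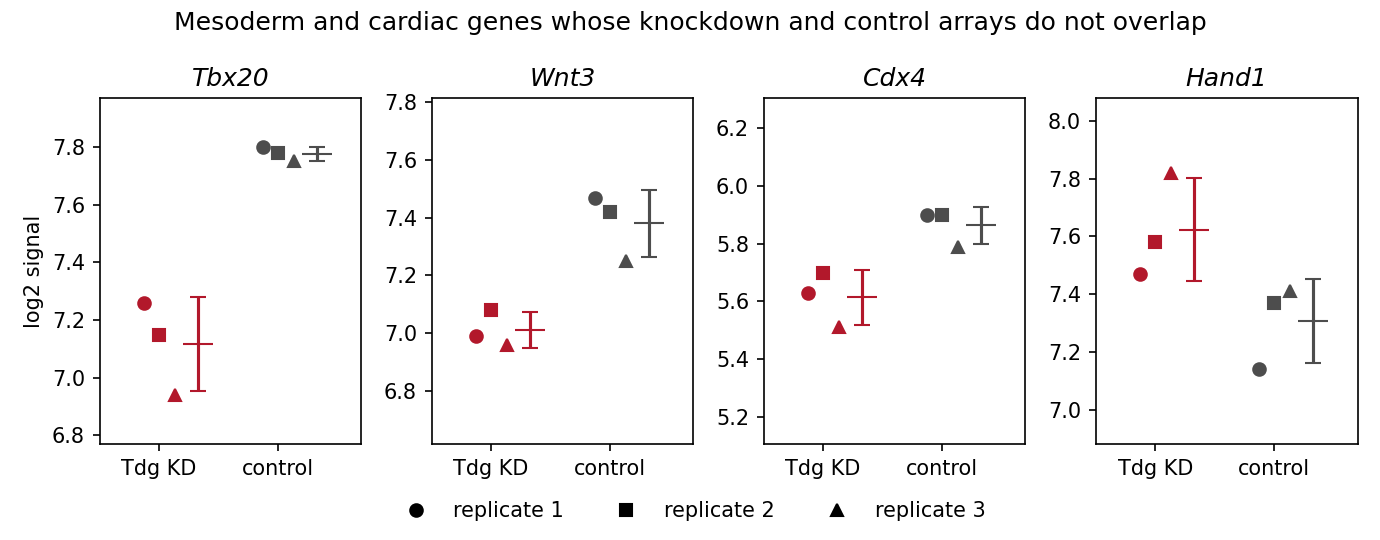
Log2 signal (vertical axes, each spanning 1.2 units) of the 4 genes whose knockdown (red) and control (grey) arrays do not overlap, with a symbol for each replicate number and the mean ± SD beside the 3 points. Tbx20, Wnt3 and Cdx4 lie lower in all 3 knockdown arrays and Hand1 lies higher, and the Tbx20 gap is the widest of the 4.

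Tbx20 encodes a T-box factor of the developing heart that is needed for chamber growth and valve formation. Its signal was 7.26, 7.15 and 6.94 in knockdown arrays against 7.80, 7.78 and 7.75 in control arrays. The control arrays lay within 0.05 of each other and every knockdown array was well below them, with knockdown replicate 3 the lowest. The difference was -0.66 (SE 0.09, 95% interval -0.87 to -0.45, adjusted p 0.0331), a signal 1.58-fold lower in knockdown cells. With the replicate numbers as a block the adjusted p was 0.0186. The call held without knockdown replicate 3 (-0.57, adjusted p 0.0151), but it was lost when any other single array was left out (-0.73 to -0.65, adjusted p 0.0953 to 0.213).

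Wnt3, the WNT ligand needed to form the streak, had signals of 6.99, 7.08 and 6.96 in knockdown arrays against 7.47, 7.42 and 7.25 in control arrays. The groups did not overlap, and knockdown replicate 2 and control replicate 3 were the nearest arrays. The difference was -0.37 (SE 0.08, 95% interval -0.56 to -0.18) with an adjusted p of 0.0980, which did not pass. With the replicate block it passed (adjusted p 0.0395), so that 2 genes of the 33 were lower, where 3.08% of all named genes passed (1.07% higher and 2.01% lower). Wnt3a, a related ligand that maintains caudal mesoderm, measured 7.14, 7.22 and 7.59 in knockdown arrays and 6.83, 7.20 and 7.16 in control arrays. Its groups overlapped, the highest value was that of knockdown replicate 3 and the lowest that of control replicate 1, and the difference of 0.25 (SE 0.15, 95% interval -0.09 to 0.60, adjusted p 0.568) did not pass.

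Cdx4, a caudal homeobox factor of the posterior embryo, measured 5.63, 5.70 and 5.51 in knockdown arrays against 5.90, 5.90 and 5.79 in control arrays. The groups were apart by less than 0.1, and the row was among the dimmest of the table (below the level under which 1 row in 3 lies), as were those of Tbx5 and Mef2c. The difference was -0.25 (SE 0.07, adjusted p 0.213, with the block 0.0691). Cdx1, its paralogue, differed by 0.04 (SE 0.13, 95% interval -0.28 to 0.35, adjusted p 0.939).

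The other streak and caudal genes gave differences between -0.12 and 0.24, none past the threshold with or without the block. Eomes, the T-box factor of the anterior streak and of trophoblast, measured 7.75, 7.95 and 7.73 in knockdown arrays against 7.93, 8.06 and 7.79 in control arrays, a difference of -0.12 (adjusted p 0.711). Mesp1 measured 6.49, 6.35 and 6.77 in knockdown arrays against 6.07, 6.40 and 6.42 in control arrays, a difference of 0.24 (SE 0.14, adjusted p 0.561). Its groups overlapped, with control replicate 1 the lowest array and knockdown replicate 3 the highest. Mesp2, the somite-boundary factor that lies beside Mesp1 in the genome, differed by 0.13 (adjusted p 0.610).

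Among node and streak regulators the homeobox genes Mixl1, of mesendoderm, and Gsc, of the organiser, differed by 0.06 and 0.08, and Lhx1, a LIM-homeobox gene of the node and axial mesendoderm, by 0.07 (adjusted p 0.747 to 0.872). The posterior streak homeobox gene Evx1 differed by 0.16 (SE 0.12, adjusted p 0.688). The paraxial mesoderm factors Tbx6 and Msgn1 differed by 0.05 and 0.003 (adjusted p 0.917 and 0.990), and the FGF ligands Fgf8 and Fgf17 by 0.08 and -0.04 (adjusted p 0.867 and 0.894). The intervals of this group differ in width: that of Gsc ran from -0.09 to 0.24 and that of Fgf8 from -0.25 to 0.41, so a shift of the size seen for Wnt3 lies inside the second interval on the upper side and outside the first.

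**Figure D2:**
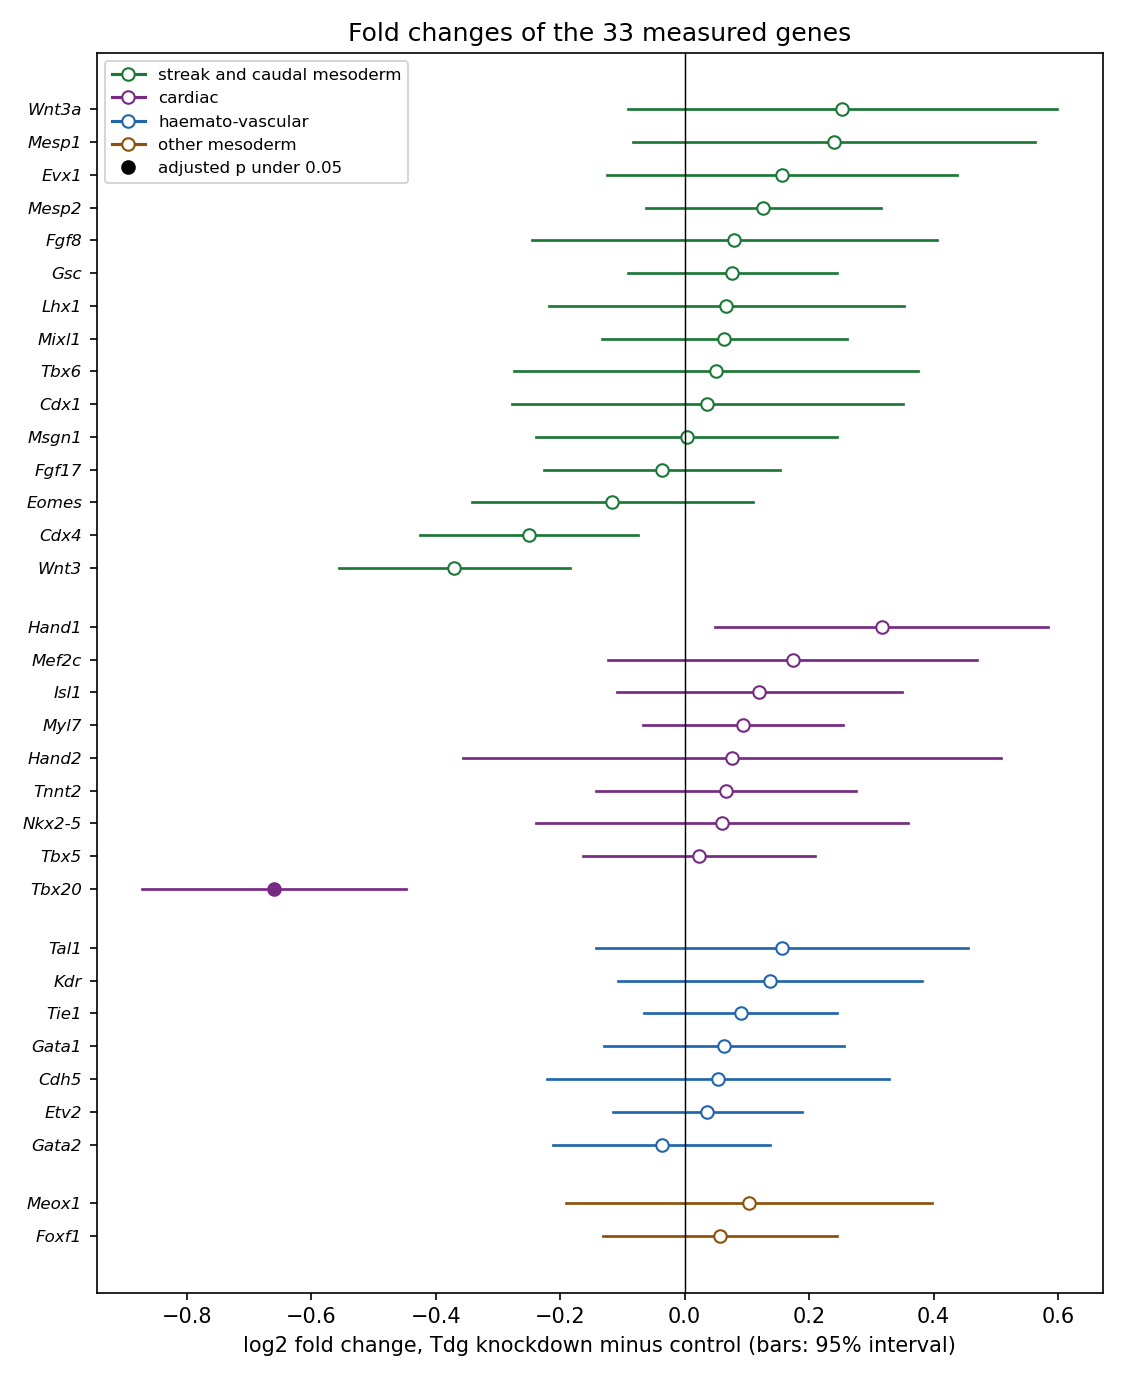
Log2 fold change of each of the 33 genes (horizontal axis, knockdown minus control) with its 95% interval from limma, grouped by role and ordered by size within a group. The filled point is Tbx20, the 1 gene with an adjusted p under 0.05, and the open points, among them Wnt3 at -0.37 and Hand1 at 0.32, did not pass.

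Among the cardiac genes Tbx20 was the 1 of 9 with a difference below 0, whereas 5 of the 9 lay below 0 without knockdown replicate 3. Hand1, a helix-loop-helix factor of the early heart, the lateral mesoderm and the trophoblast, measured 7.47, 7.58 and 7.82 in knockdown arrays against 7.14, 7.37 and 7.41 in control arrays. Every knockdown array was above every control array, by 0.06 at the nearest point, and the difference of 0.32 (SE 0.11, 95% interval 0.05 to 0.58) had an adjusted p of 0.311 and of 0.0572 with the block. Hand2, its paralogue in the right ventricle, had the largest SD within groups of the 33 genes (0.29), with 7.10, 7.08 and 7.56 in knockdown arrays and 6.89, 7.13 and 7.49 in control arrays. In both groups the array numbered 3 was the highest, and the difference was 0.08 (SE 0.18, adjusted p 0.904). Trophoblast, where Hand1 is also active, was read from 8 measured markers, Hand1 among them. Of these 3 lay above 0 and 5 below, and the part of the others in the Hand1 value was not tested. The keratin genes Krt8 and Krt18 showed -0.38 and -0.32 (adjusted p 0.150 and 0.0815, with the block 0.0329 and 0.0445), Elf5 0.17 and Cdx2 0.02. Tfap2c and Eomes were both at -0.12 and Ascl2 at -0.02. The 8 markers averaged 8.48 to 8.63 in knockdown arrays and 8.53 to 8.66 in control arrays.

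The regulators Nkx2-5 (0.06), Tbx5 (0.02), Isl1 (0.12), a marker of second heart field progenitors, and Mef2c (0.17), a MADS-box factor of muscle, had adjusted p from 0.668 to 0.935. The sarcomere genes Myl7, the atrial myosin light chain, and Tnnt2, cardiac troponin T, differed by 0.09 and 0.07. Myl7 measured 7.96, 7.98 and 7.85 in knockdown arrays and 7.85, 7.89 and 7.77 in control arrays, so its groups overlapped between 7.85 and 7.89. The 95% intervals of these 2 contractile genes, -0.07 to 0.25 and -0.14 to 0.28, leave out a change of the size seen for Tbx20.

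None of the 7 haemato-vascular genes passed, with or without the block, and none had groups that did not overlap. Over all named genes 0.792% passed, 3.08% passed with the block, and 19.0% had groups that did not overlap. Kdr, the VEGF receptor of endothelial progenitors, differed by 0.14 (SE 0.10, adjusted p 0.685), with 7.04, 6.86 and 6.97 in knockdown arrays and 6.73, 6.70 and 7.03 in control arrays. Tal1, the master factor of blood formation, differed by 0.16 (SE 0.13, adjusted p 0.707). The blood factors Gata1 and Gata2 showed 0.06 and -0.04, the endothelial cadherin gene Cdh5 0.05 and the receptor gene Tie1 0.09. Etv2, the ETS factor at the top of this branch, had 7.66, 7.76 and 7.79 in knockdown arrays and 7.66, 7.73 and 7.71 in control arrays. The arrays of both groups lay within 0.13 of each other, and the interval of the difference ran from -0.12 to 0.19, the narrowest of the 33. Foxf1, of splanchnic mesoderm, and Meox1, of the somite, differed by 0.06 and 0.10 (adjusted p 0.832 and 0.806). Foxf1 had a second row that gave 0.05.

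The 33 genes leaned slightly upward. Their median difference was 0.07, against 0.02 over all named genes, and 27 of the 33 (81.8%) lay above 0, against 56.4% of all named genes. The median was 0.06 in the streak and caudal genes, 0.08 in the cardiac genes and 0.06 in the haemato-vascular genes. Within this lean, knockdown replicate 3 was the highest of the 6 arrays for 22 of the 33 genes, and control replicate 1 the lowest for 17. Over the 19938 named genes these counts were 6790 and 4979.

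Relative to the mean of the 6 arrays, the median of the 33 genes was -0.05, -0.05 and 0.18 in knockdown arrays and -0.12, -0.01 and 0.025 in control arrays. All named genes together had medians of -0.012, 0.003 and 0.010 in knockdown arrays and -0.025, -0.003 and 0.017 in control arrays. The 1027 olfactory receptor genes, which stem cells mostly do not transcribe, had medians of -0.005, -0.06 and 0.175 in knockdown arrays and -0.09, -0.06 and 0.03 in control arrays. The 33 genes and the olfactory receptor genes thus stood highest in the same array, knockdown replicate 3, and lowest in the same array, control replicate 1, while the median of all named genes stayed between -0.025 and 0.017. The shift in knockdown replicate 3 was not common to all sets, since the median of the 10 stem cell markers stood at -0.07 there and that of the 26 signals and transducers of streak induction, described further on, at -0.09. Its part in the differences of single genes was not tested beyond leaving the array out.

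**Figure D3:**
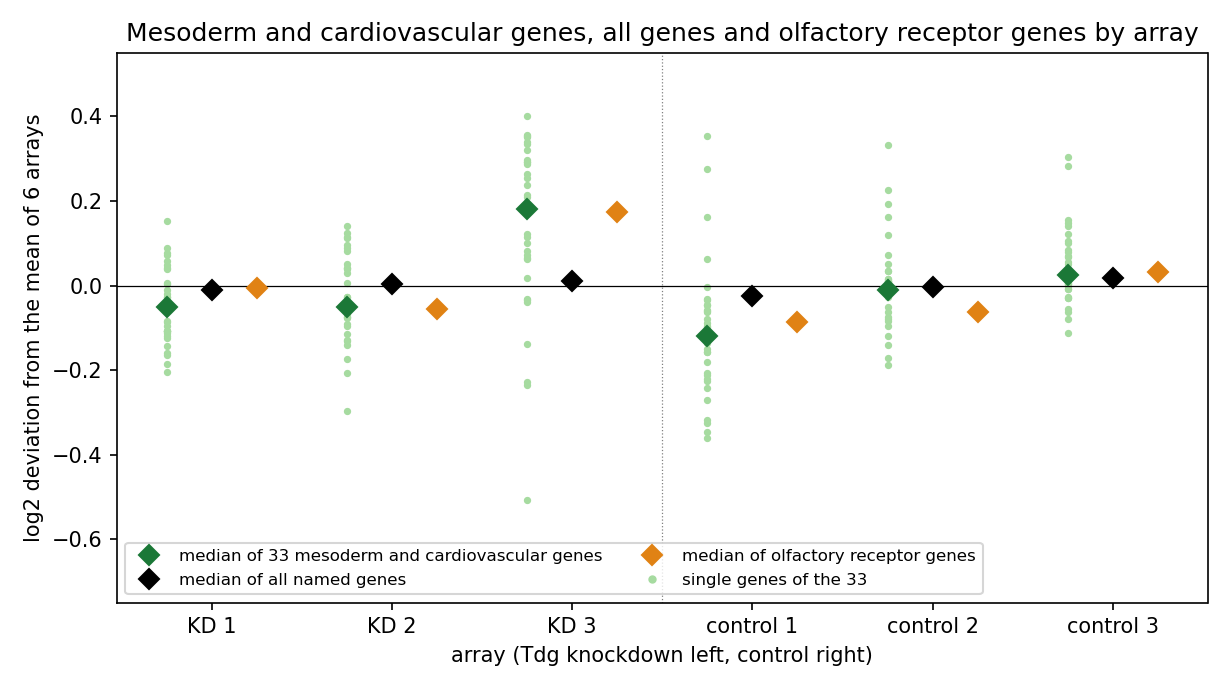
Deviation of log2 signal from the mean of the 6 arrays (vertical axis) for the knockdown arrays (left) and the control arrays (right), with a dot for each of the 33 genes and diamonds for the medians of the 33 genes, of all named genes and of the olfactory receptor genes. In knockdown replicate 3 the median of the 33 genes is at 0.18 and that of the olfactory receptor genes at 0.175, where the median of all named genes is at 0.010.

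Without knockdown replicate 3 the median difference of the 33 genes was -0.02, and 15 lay above 0 and 18 below it, against 48.5% of all named genes above 0. In that fit 12 genes changed from a positive to a negative difference, among them Tbx6 (-0.105), Msgn1 (-0.10) and the cardiac genes Hand2 (-0.08) and Nkx2-5 (-0.07), and none of the 12 passed the threshold in either fit. Tbx20 (-0.57), Wnt3 (-0.35), Cdx4 (-0.20) and Hand1 (0.22) kept their directions. Without control replicate 1 the median was 0.02, with 23 above 0 and 10 below. The spread between arrays of a group was also somewhat wider for the 33 genes, with a median SD of 0.13, than for all named genes, with 0.11.

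**Figure D4:**
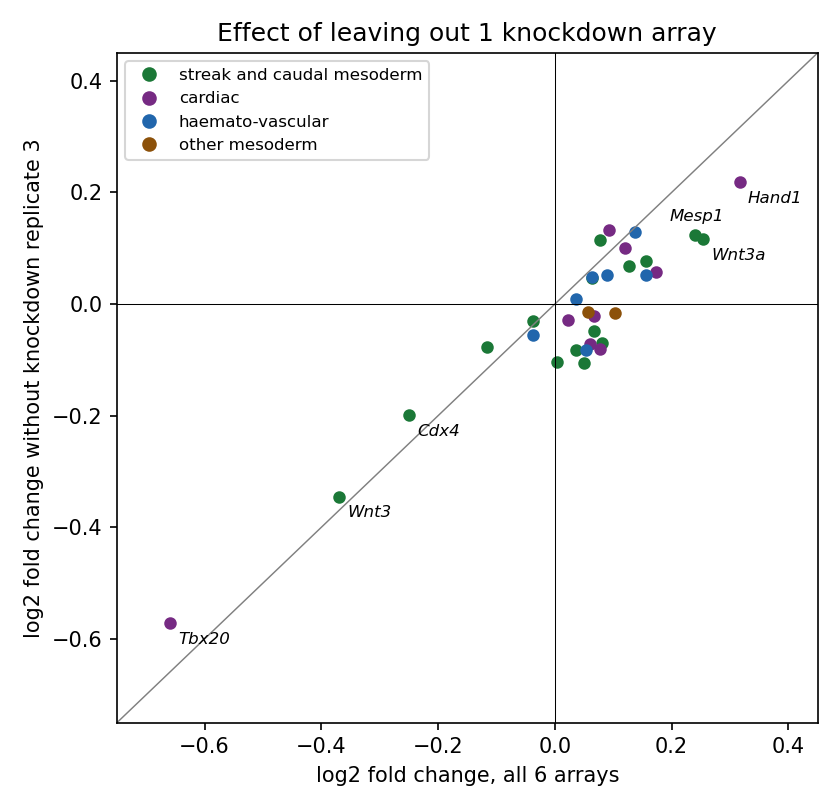
Log2 fold change of the 33 genes with all 6 arrays (horizontal axis) and without knockdown replicate 3 (vertical axis), coloured by role, with the line of equal values in grey. Most points with small positive values lie below the line and 12 of them below 0, while Tbx20 at -0.66 and -0.57 and Wnt3 at -0.37 and -0.35 stay near the line.

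Genes of the same pathways that were not on the list were read from 6 further lists of 142 measured genes in all. Of these, 4 rose and 1 fell, or 3.52% against 0.792% of all named genes, and the median difference was 0.02. With the block 5 rose and 3 fell, or 5.63% against 3.08% of all named genes (1.07% higher and 2.01% lower). Of 26 measured signals and transducers of streak induction 1 rose, Lef1, the WNT effector that acts with beta-catenin in the streak. Lef1 had 8.91, 9.03 and 8.87 in knockdown arrays against 8.44, 8.50 and 8.39 in control arrays, a difference of 0.49 (SE 0.07, adjusted p 0.0360). It lay in the opposite direction to the ligand gene Wnt3, and the arrays of a group agreed to within 0.16. In that list 10 of the 26 genes were above 0 and 16 below. The groups did not overlap for 2 higher and 10 lower genes, 46.2% of the 26. Over all named genes that share was 19.0% (7.98% higher and 11.0% lower). Tcf7l2, another WNT effector of the TCF/LEF family, was at -0.40 (SE 0.07, adjusted p 0.0645) and passed with the block (adjusted p 0.0383).

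Of 24 paraxial and presomitic genes 1 rose, Ripply1, a repressor that ends Tbx6 activity in the forming somite. Its signal was 9.70, 9.67 and 9.61 in knockdown arrays against 9.23, 9.13 and 9.00 in control arrays, a difference of 0.54 (SE 0.08, adjusted p 0.0360). The groups were apart by more than the spread within either. Tbx6 RNA signal differed by 0.05, and TBX6 protein or its activity was not measured. Of 13 lateral plate and intermediate mesoderm genes 1 rose, Pax8, a kidney and thyroid factor (8.45, 8.52 and 8.57 in knockdown arrays against 8.07, 8.08 and 8.01 in control arrays, difference 0.46, SE 0.06, adjusted p 0.0331), and 1 fell, the ligand gene Bmp7 (8.39, 8.60 and 8.54 in knockdown arrays against 9.03, 8.99 and 9.07 in control arrays, difference -0.52, SE 0.07, adjusted p 0.0360). The share of all named genes that passed was 0.792% (0.241% higher and 0.552% lower). Groups did not overlap for 4 higher and 0 lower of the 24 genes (16.7%). Among the 13 genes they did not for 2 higher and 1 lower (23.1%), against 19.0% of all named genes.

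Of 41 endothelial and blood genes 1 rose, Cd34, a surface sialomucin of endothelium and blood progenitors. Its signal was 9.03, 9.12 and 9.01 in knockdown arrays against 8.58, 8.61 and 8.55 in control arrays, a difference of 0.47 (SE 0.06, adjusted p 0.0318). Esam, another gene of the 41, was at 0.39 (SE 0.10, adjusted p 0.164) and passed with the block (adjusted p 0.0383). The groups did not overlap for 6 higher and 6 lower genes, 29.3% of the 41. Over all named genes that share was 19.0% (7.98% higher and 11.0% lower). The endothelial genes Kdr, Cdh5 and Tie1, described above, did not pass with or without the block. None of 32 further cardiac genes passed, where 0.792% of all named genes did. The smallest p there were those of Actc1, cardiac alpha-actin, at -0.38 (adjusted p 0.0699, with the block 0.0292), and Des, the muscle intermediate filament desmin, at -0.29 (adjusted p 0.119, with the block 0.0524).

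None of 11 measured T-box genes outside the list passed, where 0.792% of all named genes did. The smallest p were those of Tbx3, a factor of the stem cell network and of the cardiac conduction system, at -0.20 (SE 0.06, adjusted p 0.232), and of Tbx21, the T-cell factor T-bet, at 0.18 (SE 0.07, adjusted p 0.371). Together with Eomes (-0.12), Tbx5 (0.02) and Tbx6 (0.05), Tbx20 was the 1 measured T-box gene of both lists that passed. The 5 calls among the 6 further lists were lost without knockdown replicate 1 or 2 or any 1 control array, as was that of Tbx20, and with all rows of the table tested.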

How the data were processed

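The authors deposited 1 log2 signal for each probe set on each array, with 2 decimals and between 2.26 and 14.03. The submitters' processing notes name Affymetrix Expression Console. Neither its version nor the summarisation and normalization are given in the sources used here, and the log2 scale was read from the range. Of 35557 rows 21789 list 1 gene in the platform annotation, 1621 several and 12147 none. Names were updated by gene identifier through the RefSeq table of GRCm38.p6 (21698 rows matched), and the row with the highest mean over the 6 arrays stood for a gene, which gave 19938 named genes.

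Knockdown was compared with control by limma 3.58.1 (R 4.3.3, lmFit and eBayes with defaults, two-sided, 3 arrays a group), with Benjamini-Hochberg adjustment over all named genes, and only the listed genes are printed. The 34 genes and the further lists were chosen with earlier results of these data known, so no list was tested as a set. The text names all measured genes of the list and, from each further list, every gene past the threshold or, where none passed, the 2 with the smallest p. Genes named beyond that were chosen after their values were seen. Equal replicate numbers were checked for pairing: deviations from the group means correlated at 0.61, 0.23 and 0.70 across genes, all above the criterion of 0.1, which met the criterion for pairing. The reported fit has no block, and the fit with the numbers as a block is given beside results it changes. No label says what the numbers share, and blocked values hold only if they pair the arrays. A planned comparison of protein sequences was not made. The fitting procedure was tested on simulated data. That simulation held no array that stood apart, and its planted changes were larger than those called among the listed genes. It therefore does not show how the fit performs for changes of the reported size. Alternatives were the replicate block, quantile normalization, median centring, leaving out the 1 in 3 rows with the lowest mean level, array weights, a prior fitted with trend and robustly, averaging a gene's rows, testing all rows, and leaving out each array in turn.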

Additional observations from a re-analysis of the deposited data

How the results depend on the processing

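The difference of Tdg kept its direction and passed in every alternative run, as did the direction of Tbx20, Wnt3 and Hand1. No gene of the 33 was called higher in any of them. Tbx20 passed in all of them but testing all rows (adjusted p 0.113) and leaving out any 1 array except knockdown replicate 3, and the count of the 33 genes called lower was 0 with all rows tested and 0 to 1 when 1 array was left out. It was 2 with the replicate block, where Wnt3 joined Tbx20, and 3 with array weights estimated gene by gene, where Cdx4 joined too. The share of all named genes called was 0.792% as reported, 3.08% with the block and 8.19% with array weights, so that the 3 of 33 lay near the share of all genes. The planned default weights did not converge, and the gene-by-gene weights, which gave knockdown replicate 3 the lowest weight (0.197), were chosen after seeing the data. The replicate block changed no other call of the 33. The median of the 33 was between 0.06 and 0.07 in the other settings with all arrays, -0.01 with array weights, and -0.02 to 0.13 with 1 array left out.

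Among the 142 genes of the further lists, the count higher was 1 with arrays centred on their medians, 10 with array weights, 0 with all rows tested, and 0 to 4 with 1 array left out. The count lower was 3 with the replicate block, 3 without the dimmest rows, 4 with the prior fitted with trend and robustly, 13 with array weights, 0 with all rows tested, and 0 to 3 with 1 array left out. Calls over all named genes moved too, from 158 as reported to 118 with centring, 614 with the block, 351 without the dimmest rows, 446 with the trended prior, 1633 with array weights, 12 with all rows tested, and 0 to 290 with 1 array left out. Bmp7 missed the threshold after quantile normalization (-0.48, adjusted p 0.0562), and Lef1, Pax8 and Cd34 after centring (adjusted p 0.0529 to 0.0568). Actc1 passed with the block (-0.38, adjusted p 0.0292), and also without the dimmest rows, with the prior fitted with trend, with array weights and without knockdown replicate 3 (adjusted p 0.00431 to 0.0499). Causes of these moves were not tested. Testing all rows adds tests and leaving out an array removes samples, but the part of either in the moves was not tested.

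Small differences changed sign without passing any threshold. With array weights the values were -0.031 for Mixl1, -0.079 for Fgf8, -0.058 for Tbx6, -0.087 for Lhx1, -0.065 for Msgn1, -0.087 for Cdx1, -0.023 for Hand2, -0.0024 for Tbx5, -0.039 for Nkx2-5, -0.023 for Gata1, -0.080 for Cdh5 and -0.022 for Etv2. Fgf17 was at 0.0022 after quantile normalization and Msgn1 at -0.0033 after centring. With 1 array left out the ranges were -0.07 to 0.18 for Fgf8, -0.105 to 0.145 for Tbx6, -0.048 to 0.127 for Lhx1, -0.103 to 0.0917 for Msgn1, -0.0817 to 0.123 for Cdx1, -0.09 to 0.0133 for Fgf17, -0.08 to 0.237 for Hand2, -0.0283 to 0.0717 for Tbx5, -0.0717 to 0.178 for Nkx2-5, -0.0217 to 0.128 for Tnnt2, -0.0817 to 0.138 for Cdh5, -0.075 to 0.02 for Gata2, -0.015 to 0.1 for Foxf1 and -0.0167 to 0.19 for Meox1.

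Precision is limited by 3 arrays a group. The widest 95% bounds among the 32 genes that did not pass were -0.56 and 0.60, so changes of that size remain possible for some of them, and signal over background is unknown.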
